A study of Mus musculus with 24 samples.

Results

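Polycomb repressive complex 1 (PRC1) was followed through 10 of the 55536 genes of a raw count table: the polyhomeotic genes Phc1, Phc2 and Phc3, the RING genes Ring1 and Rnf2, the PCGF genes Bmi1, Pcgf2 and Pcgf6, and Cbx2 and Scmh1. The rows were found by matching Ensembl identifiers to these symbols in GENCODE M21, and all 10 matched. The set was selected on the null against wild-type values of Phc2 in both cell fractions, so every genotype value of Phc2 is given as a description with no test. The other 9 genes entered as its paralogs and complex partners, with earlier results of these data known, and they and the differences between the fractions were tested.

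Poly(A) RNA was sequenced from pachytene/diplotene spermatocytes and round spermatids enriched from testes by sedimentation in a bovine serum albumin gradient. The males were Ago413+/+ (wild-type), Ago413+/- (heterozygous) or Ago413-/- (null), aged 10 to 15 weeks, on a C57BL/6J background, and testes of 2 to 5 mice were pooled. The Ago413 deletion, which is carried by every cell of the animal, takes out the whole of Ago1 with pieces of its neighbours Ago3 and Ago4. It was made in embryonic stem cells of another mouse strain, and DNA of that strain beside the deletion cannot be told apart from the deletion itself. Of 24 libraries, the labels call 3 outliers, which left 4 Ago413+/+, 3 Ago413+/- and 3 Ago413-/- spermatocyte libraries and 3, 4 and 4 round spermatid libraries, and p-values measure the spread between these pooled preparations.

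Depth ranged from 12825100 to 29749100 counts per library. Ago1 had 0 counts in all 7 null libraries and 32 to 122 counts in the others. Ago3 stood at 7.02 ± 2.89 CPM in wild-type, 30.3 ± 15.6 in heterozygous and 64.8 ± 24.5 in null spermatocytes (SD, n = 4, 3 and 3) and at 4.56 ± 1.18, 20.4 ± 3.45 and 29.9 ± 15.5 CPM in round spermatids (SD, n = 3, 4 and 4). Ago4 stood at 32.1 ± 12.9, 15.2 ± 6.14 and 12.3 ± 3.39 CPM in spermatocytes and 16.9 ± 3.31, 13.3 ± 1.39 and 11.1 ± 1.73 CPM in round spermatids, in the same order of groups. CPM are counts scaled to library size. Per the paper, the deleted allele still makes Ago3 and Ago4 mRNA, which carries premature stop codons. The paper also reports that the AGO1, AGO3 and AGO4 proteins were lost from null testes. The Ago3 and Ago4 levels here thus include transcripts of the deleted allele. All 8 markers of round spermatids were also found in spermatocyte libraries, where they summed to between 3489 and 11930 CPM against between 15478 and 43374 in round spermatid libraries. The 8 pachytene/diplotene markers were also high in both, and in wild-type libraries summed to 2992 to 3813 CPM in spermatocytes and 2347 to 2575 in round spermatids. Fractions were above 70% pure per the labels, and the part of other cells in the values below was not tested. In such pools, fewer cells of a type and less RNA per cell cannot be told apart.

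PRC1 is a chromatin complex whose RING proteins, as E3 ligases, attach ubiquitin to histone H2A. Each complex holds a RING protein with 1 PCGF protein. In canonical complexes this core is joined by a CBX protein, which binds the methylated histone H3 left by Polycomb repressive complex 2 (PRC2), and by a polyhomeotic (PHC) protein, whose SAM domain links complexes into chains, while variant complexes have other subunits. In male germ cells PRC1 is known for keeping somatic developmental genes silent.

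Phc2 (ENSMUSG00000028796) lies at chr4:128654702-128752881 (mm10, plus strand), 2.12 Mb from the span of Ago3, Ago1 and Ago4 (chr4:126331704-126533472). Phc1 (chr6:122317731-122340561) and Phc3 (chr3:30899371-30969415) lie on other chromosomes. The RefSeq table (GRCm38.p6, the assembly of mm10) gave Phc2 3 starts. The 250 bases before each are shown because a count per gene adds up transcripts from all of them, so that a change in Phc2 cannot be assigned to a start. Capitals mark CG dinucleotides.
Phc2 upstream start (chr4:128654452-128654701, plus strand): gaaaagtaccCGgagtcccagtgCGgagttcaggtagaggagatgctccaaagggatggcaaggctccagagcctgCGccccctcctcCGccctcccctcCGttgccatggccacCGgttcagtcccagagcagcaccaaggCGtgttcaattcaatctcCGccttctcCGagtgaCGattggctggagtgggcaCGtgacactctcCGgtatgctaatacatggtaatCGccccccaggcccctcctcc
Phc2 middle start (chr4:128688488-128688737, plus strand): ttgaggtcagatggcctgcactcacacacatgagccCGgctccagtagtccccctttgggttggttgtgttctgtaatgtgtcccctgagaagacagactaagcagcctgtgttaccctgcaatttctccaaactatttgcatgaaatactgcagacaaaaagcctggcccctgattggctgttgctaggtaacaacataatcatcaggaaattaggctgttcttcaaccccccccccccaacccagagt
Phc2 downstream start (chr4:128727321-128727570, plus strand): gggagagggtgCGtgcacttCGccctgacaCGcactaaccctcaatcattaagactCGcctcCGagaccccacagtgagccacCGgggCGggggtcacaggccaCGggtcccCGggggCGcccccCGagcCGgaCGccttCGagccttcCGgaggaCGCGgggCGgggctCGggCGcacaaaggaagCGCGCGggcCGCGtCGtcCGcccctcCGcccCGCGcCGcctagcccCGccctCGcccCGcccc
These windows differ in their CG content. They hold 13, 1 and 34 CG dinucleotides, against a median of 6 over 32851 RefSeq promoter windows of the same length, and have a GC content of 61.2%, 50% and 76% against a median of 52.4%. The letters TGACG, the core of the cyclic AMP response element, were searched on both strands, and occurred once in the upstream window and in neither of the others. They occur in 17.8% of all windows.

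Transcripts of Phc2 share none of their 31-base words with those of another gene, and those of Phc1 and Phc3 share 0.384% and 0.431%, so nearly all their reads can be assigned to 1 of the 3 paralogs.

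Phc2 was about 2-fold higher in Ago413-/- than in Ago413+/+ libraries of both fractions, and the heterozygous means lay between. Levels are CPM on 1 scale for all 21 libraries. In spermatocytes Phc2 stood at 32.2, 33.5, 31.3 and 28.3 CPM in the 4 wild-type libraries, at 48.8, 48.5 and 67.0 CPM in the 3 heterozygous libraries and at 63.0, 66.9 and 63.8 CPM in the 3 null libraries. All heterozygous and null libraries lay above all wild-type libraries, while heterozygous and null libraries overlapped because 1 heterozygous library was the highest of the fraction. The means were 31.3 ± 2.22 (SD, n = 4), 54.8 ± 10.6 (SD, n = 3) and 64.5 ± 2.04 CPM (SD, n = 3). The log2 fold change was 1.06 (SE 0.16) for null and 0.85 (SE 0.16) for heterozygous against wild-type libraries.

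In round spermatids the wild-type libraries held 41.7, 34.7 and 38.5 CPM of Phc2, the heterozygous libraries 70.3, 55.5, 62.9 and 65.7 CPM, and the null libraries 81.6, 83.3, 81.0 and 71.8 CPM. Here the 3 genotypes did not overlap at all. The means were 38.3 ± 3.50 (SD, n = 3), 63.6 ± 6.19 (SD, n = 4) and 79.4 ± 5.16 CPM (SD, n = 4), with log2 fold changes against the wild type of 1.02 (SE 0.11) for the null and 0.74 (SE 0.11) for the heterozygote. Null against heterozygous libraries gave 0.29 (SE 0.10) in round spermatids and 0.21 (SE 0.17) in spermatocytes. The heterozygous and null values are set against the same wild-type libraries and are not independent of each other.

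The mean level of Phc2 was lowest in wild-type spermatocytes, followed by wild-type round spermatids, heterozygous spermatocytes, heterozygous round spermatids, null spermatocytes and null round spermatids. Neighbours in this order overlapped between heterozygous spermatocytes and heterozygous round spermatids and between heterozygous round spermatids and null spermatocytes. Over 7 other ways of fitting the counts, the null against wild-type log2 fold change of Phc2 ranged from 0.92 to 1.11 in spermatocytes and from 1.01 to 1.14 in round spermatids. Leaving out 1 library at a time gave 1.03 to 1.12 and 0.97 to 1.08.

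**Figure D1:**
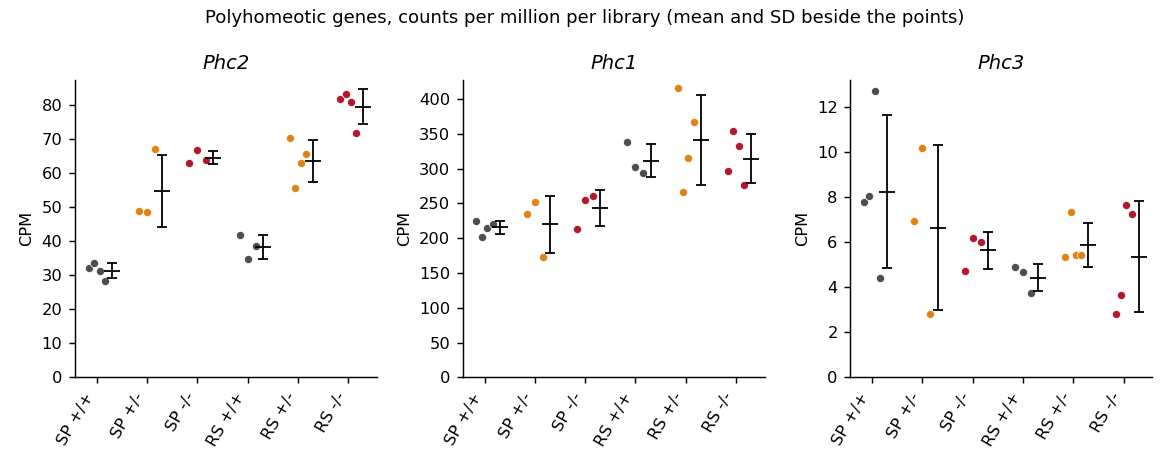
Level in CPM of Phc2, Phc1 and Phc3 in each library of spermatocytes (SP) and round spermatids (RS) of the 3 genotypes. Points are libraries and bars beside them show the mean and SD of a group. For Phc2 all libraries with the deletion lie above all wild-type libraries of their fraction, while for Phc1 and Phc3 the null libraries overlap with the wild-type libraries.

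The paralogs did not move with Phc2 in a way that passed the test. Phc1, the most abundant PHC gene of these cells, held 224, 202, 215 and 221 CPM in wild-type and 214, 255.7 and 260 CPM in null spermatocytes, which overlap. Its log2 fold change was 0.19 (SE 0.15, adjusted p = 0.405 by edgeR). In round spermatids Phc1 stood at 339, 302 and 294 CPM in wild-type and 297, 354, 332 and 276 CPM in null libraries, a log2 fold change of -0.02 (SE 0.14, adjusted p = 0.964 by edgeR), whose 95% interval of -0.31 to 0.28 excludes a 2-fold change. In spermatocytes that interval was -0.14 to 0.52. Heterozygous against wild-type values of Phc1 were 0.08 and 0.13 (edgeR adjusted p = 0.788 in both fractions).

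Phc3, the least abundant PHC gene, was low and variable. It held 7.76, 8.04, 12.7 and 4.42 CPM in wild-type and 4.70, 6.18 and 6.00 CPM in null spermatocytes, a log2 fold change of -0.52 (SE 0.40, adjusted p = 0.383 by edgeR). With a library left out, that value ranged from -0.73 to -0.18. In round spermatids Phc3 held 4.88, 4.67 and 3.72 CPM against 2.83, 3.63, 7.66 and 7.25 CPM, a log2 fold change of 0.26 (SE 0.32, adjusted p = 0.691 by edgeR). The null libraries of round spermatids spread over more than the whole range of the wild type. The 95% intervals, -1.38 to 0.34 and -0.43 to 0.94, leave room for changes of considerable size in Phc3.

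Per kilobase of exon, the PHC pool of wild-type spermatocytes was 89.2 ± 1.16% Phc1, 9.74 ± 0.907% Phc2 and 1.03 ± 0.429% Phc3 (SD, n = 4). In null spermatocytes the shares were 82.8 ± 1.28%, 16.6 ± 1.30% and 0.579 ± 0.0333% (SD, n = 3). Round spermatids gave 8.41 ± 0.504% Phc2 in the wild type (SD, n = 3), 12.3 ± 1.02% in the heterozygote (SD, n = 4) and 15.9 ± 0.938% in the null (SD, n = 4). Phc1 thus stayed the main PHC transcript in every group, and its share was never below 77.3% of a library. Length here is the union of annotated exons, and a gene whose transcripts are mostly short is set too low by it.

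**Figure D2:**
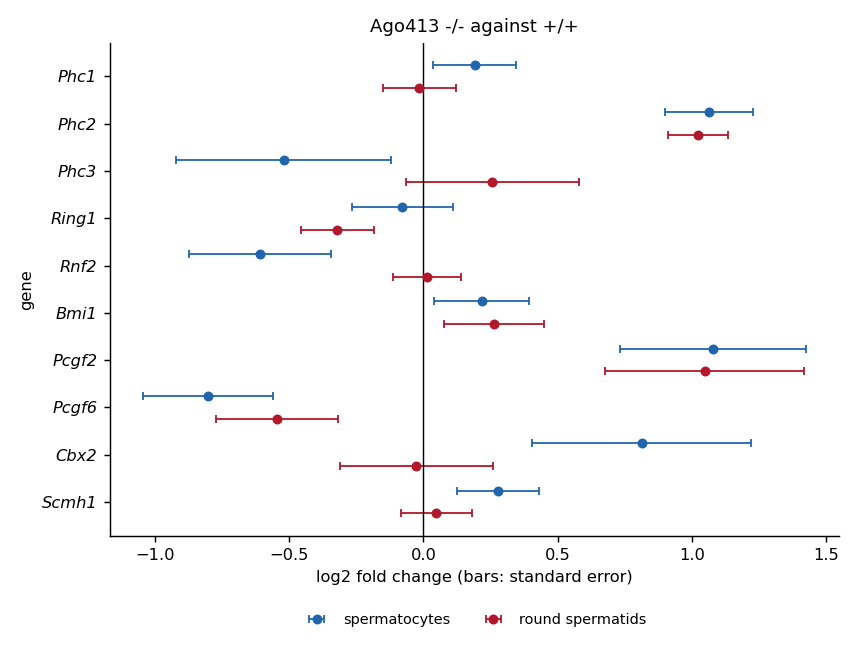
Log2 fold change of null against wild-type libraries for the 10 genes in spermatocytes and round spermatids, with standard errors as bars. Phc2, on which the set was chosen, stands at 1.06 and 1.02, Pcgf2 at 1.08 and 1.05 with wider errors, and Pcgf6 at -0.80 and -0.54.

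None of the other 9 genes was called for genotype with edgeR, in any of the 6 comparisons. A call needed a Benjamini-Hochberg adjusted p under 0.05 together with a log2 fold change beyond 0.5 in either direction. Such calls were rare at all: 0.0411% of tested genes for null and 0.0257% for heterozygous against wild-type spermatocytes, and 0.0518% and 0.0207% in round spermatids. For null against heterozygous libraries they were 0.00514% in spermatocytes and 0.00518% in round spermatids. At an unadjusted p under 0.05 there were 3 of the 9 genes in null spermatocytes (Rnf2, Pcgf2 and Pcgf6), 3 in heterozygous spermatocytes (Pcgf2, Pcgf6 and Cbx2), 3 in null round spermatids (Ring1, Pcgf2 and Pcgf6) and 1 in heterozygous round spermatids (Pcgf2). Over all tested genes the shares were 30.4%, 24.6%, 19.3% and 8.88%. None of the 9 had one for null against heterozygous libraries (3.74% of all genes in spermatocytes and 7.67% in round spermatids). DESeq2 called Pcgf2 and Pcgf6 in null and in heterozygous spermatocytes, where it called 15.6% and 6.31% of all tested genes. In round spermatids it called none of the 9, with 3.64% of tested genes called for the null and 0.0363% for the heterozygote, and gave Pcgf2 no adjusted p for the null. A single library weighed on the calls in spermatocytes: without wild-type replicate 5, edgeR called Rnf2, Pcgf2 (adjusted p = 0.0457) and Pcgf6 (adjusted p = 0.0212) for the null and Pcgf2 (adjusted p = 0.0268) and Pcgf6 (adjusted p = 0.0240) for the heterozygote. The same fits called 23.6% and 15.5% of all tested genes. The median log2 fold change of the 9 genes was 0.19 in null spermatocytes and 0.01 in null round spermatids, against -0.03 and 0.03 over all tested genes.

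Among the libraries used, groups without overlap were also common. For null against wild-type spermatocytes, Pcgf2 and Cbx2 lay wholly above and Pcgf6 wholly below the wild type, with 28.0% of all tested genes free of overlap. Heterozygous spermatocytes were free of overlap in Pcgf2 and Pcgf6 (17.6% of all genes), null round spermatids in Ring1 (19.4%), and heterozygous round spermatids in Phc3, Pcgf2 and Scmh1 (9.81%).

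Ring1 and Rnf2 encode the ubiquitin ligases. Ring1 held 16.4 to 24.3 CPM in wild-type and 17.6 to 20.4 CPM in null spermatocytes, with a log2 fold change of -0.08 (SE 0.19, adjusted p = 0.796 by edgeR). Its round spermatid libraries held 16.4, 18.3 and 19.0 CPM for wild-type and 15.7, 15.7, 12.9 and 14.3 CPM for null libraries, which lay below all of them. That log2 fold change was -0.32 (SE 0.14, adjusted p = 0.217 by edgeR).

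Rnf2, which encodes the RING1B ligase, split the wild-type spermatocytes, with 40.7 and 50.3 CPM in replicates 1 and 4 and 23.96 and 22.95 CPM in replicates 2 and 5. Null spermatocytes held 25.1, 22.7 and 18.7 CPM, a log2 fold change of -0.61 (SE 0.26, adjusted p = 0.142 by edgeR). Without wild-type replicate 5 the value was -0.76 with an edgeR adjusted p of 0.0463, and it ranged from -0.76 to -0.32 over the libraries left out in turn. In round spermatids Rnf2 held 21.5 to 24.03 CPM in wild-type and 20.9 to 25.3 CPM in null libraries, a log2 fold change of 0.01 (SE 0.13, adjusted p = 0.965 by edgeR). Rnf2 overlaps Trmt1l on the opposite strand and Gm36527 on its own strand.

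The 3 PCGF genes define different PRC1 complexes, canonical ones for Bmi1 (PCGF4) and Pcgf2 (MEL18) and a variant one for Pcgf6. Pcgf2 was the lowest of the 10 genes per kilobase in wild-type spermatocytes. Its wild-type spermatocyte libraries held 0.771, 0.670, 1.12 and 1.00 CPM, the heterozygous libraries 2.91, 2.70 and 1.49 CPM and the null libraries 2.05, 1.46 and 2.12 CPM. Every library used with the deletion lay above every wild-type library used, on counts from as few as 9 per library. Among the libraries left out as outliers, the wild-type one held 1.70 CPM and the heterozygous one 0.869 CPM.

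The log2 fold change of Pcgf2 in spermatocytes was 1.08 for the null (SE 0.35, adjusted p = 0.0752 by edgeR, DESeq2 adjusted p = 0.0288) and 1.44 for the heterozygote (SE 0.34, adjusted p = 0.124 by edgeR, DESeq2 adjusted p = 0.0167). In round spermatids Pcgf2 held 0.791, 1.25 and 0.965 CPM (wild-type), 2.72, 2.61, 2.42 and 1.39 CPM (heterozygous) and 1.18, 3.34, 1.81 and 2.22 CPM (null). The heterozygous libraries lay above all wild-type libraries used, whereas 1 null library fell among them. The wild-type round spermatid library left out as an outlier held 2.05 CPM on a scale of all 24 libraries. The log2 fold changes were 1.05 (SE 0.37, adjusted p = 0.151 by edgeR) for the null and 1.18 (SE 0.37, adjusted p = 0.551 by edgeR) for the heterozygote. Pcgf2 lies at chr11:97688823-97700497, away from the deletion. The 8 spermatogonia markers summed to 39.7 to 50.4 CPM in wild-type, 69.0 to 91.8 in heterozygous and 47.6 to 78.7 in null spermatocytes, and their part in the values of Pcgf2 was not tested.

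Pcgf6 had the opposite sign. Wild-type spermatocytes held 87.5, 68.8, 94.3 and 57.5 CPM, heterozygous ones 48.9, 39.4 and 30.0 CPM and null ones 29.8, 53.8 and 47.3 CPM. The 4 wild-type libraries lay above all others used, whereas the wild-type library left out as an outlier held 25.9 CPM on a scale of all 24 libraries. The log2 fold change was -0.80 for the null (SE 0.24, adjusted p = 0.0692 by edgeR, DESeq2 adjusted p = 0.0304) and -0.92 for the heterozygote (SE 0.24, adjusted p = 0.124 by edgeR, DESeq2 adjusted p = 0.0268). In round spermatids the values were 34.9, 26.1 and 31.7 CPM for wild-type and 16.9, 16.2, 26.7 and 25.7 CPM for null libraries, which overlapped at 26.1 and 26.7 CPM. That log2 fold change was -0.54 (SE 0.23, adjusted p = 0.2096 by edgeR). The summed pachytene/diplotene markers moved alike, with 2992 to 3813 CPM in wild-type, 2425 to 2915 in heterozygous and 2173 to 2887 in null spermatocytes. None of the 8 markers was at 0 in all libraries of a group, and their part in the values of Pcgf6 was not tested.

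Bmi1 held 90.6 to 117 CPM in wild-type spermatocytes and 151, 105 and 100 CPM in null ones, a log2 fold change of 0.22 (SE 0.18, adjusted p = 0.413 by edgeR). In round spermatids it held 183 to 215 CPM in wild-type and 191 to 307 CPM in null libraries, 0.26 (SE 0.19, adjusted p = 0.4497 by edgeR). Of its 31-base words 28.2% occur in another gene, nearly all in Gm5946, which held at most 5 counts in a library.

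Cbx2, the reader of methylated histone H3 among the 10, was low. Wild-type spermatocytes held 1.93, 2.46, 2.33 and 2.73 CPM and null ones 5.59, 3.44 and 3.25 CPM, all higher, while the wild-type library left out as an outlier held 6.08 CPM. The log2 fold change was 0.81 (SE 0.41, adjusted p = 0.192 by edgeR). In round spermatids it held 4.0004 to 5.92 CPM in wild-type libraries and 3.45 to 6.49 CPM in the null, with a log2 change of -0.03 (SE 0.28, adjusted p = 0.9696 by edgeR). Scmh1 encodes a homolog of Drosophila Sex comb on midleg, a partner of PHC proteins. It lies on chromosome 4 as well, 5.8 Mb from the Argonaute span at chr4:120405281-120530186. Its libraries held 114 to 120 CPM in wild-type and 113 to 157 CPM in null spermatocytes, a log2 fold change of 0.28 (SE 0.15, adjusted p = 0.234 by edgeR), and 115 to 131 against 110 to 144 CPM in round spermatids, 0.05 (SE 0.13, adjusted p = 0.868 by edgeR).

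For the heterozygote, the genes not yet given for that genotype stayed close to the wild type or varied widely. Phc3 stood at 6.94, 10.2 and 2.83 CPM in heterozygous spermatocytes, a range that held most wild-type libraries. In heterozygous round spermatids it stood at 5.33, 7.32, 5.41 and 5.43 CPM, above all wild-type libraries used. The wild-type round spermatid library left out as an outlier held 7.97 CPM of Phc3 on a scale of all 24 libraries. The log2 values of Phc3 were -0.25 and 0.41 (edgeR adjusted p = 0.7305 and 0.707). Cbx2 spread from 1.76 to 7.50 CPM over the heterozygous spermatocytes, a log2 value of 0.97 (SE 0.41, adjusted p = 0.168 by edgeR), and had -0.04 in round spermatids (edgeR adjusted p = 0.9804). With a library left out, the spermatocyte value of Cbx2 ranged from 0.38 to 1.34. Pcgf6 held 19.7, 31.5, 22.5 and 19.4 CPM in heterozygous round spermatids, which overlapped with the wild type, a log2 value of -0.39 (SE 0.23, adjusted p = 0.614 by edgeR). For Ring1, Rnf2, Bmi1 and Scmh1 the heterozygous log2 values lay between -0.28 and 0.21 in both fractions, with edgeR adjusted p from 0.469 to 0.969.

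For the 9 genes the log2 values of null against heterozygous libraries ran from -0.36 (Pcgf2) to 0.27 (Scmh1) in spermatocytes, with a lowest edgeR adjusted p of 0.974, and from -0.18 (Ring1) to 0.16 (Rnf2) in round spermatids, with a lowest edgeR adjusted p of 0.715. The 95% intervals of these values reached from -1.19 (Phc3) to 0.76 (Cbx2) in spermatocytes, where Pcgf2 and Cbx2 also reached -1.13 and -1.09, and from -0.81 (Pcgf2) to 0.58 (Cbx2) in round spermatids.

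**Figure D3:**
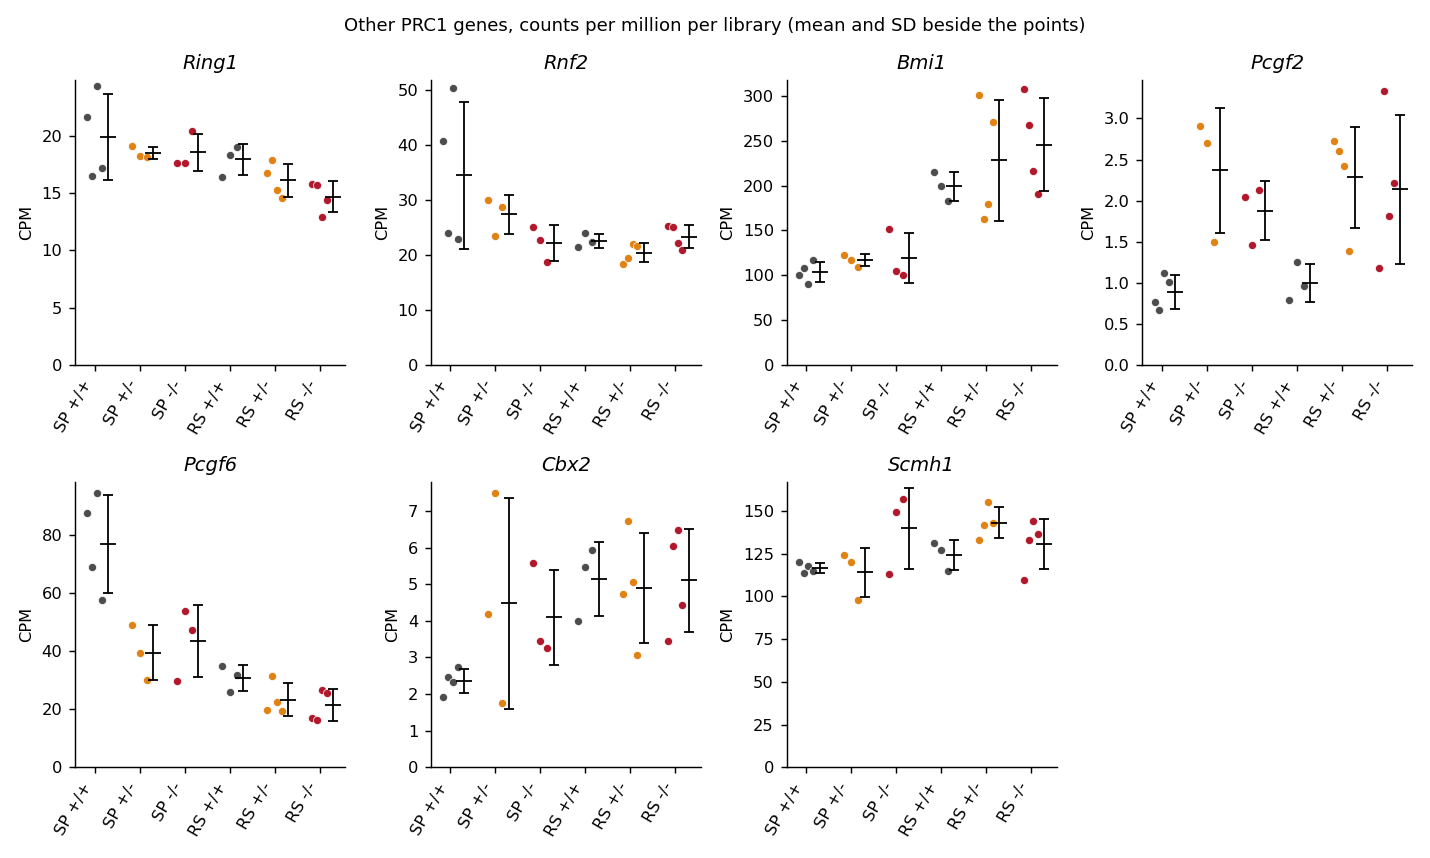
Level in CPM of the 7 PRC1 genes outside the PHC family in each library of spermatocytes (SP) and round spermatids (RS). Points are libraries and bars beside them the mean and SD of a group. Pcgf6 is highest in wild-type spermatocytes (57.5 to 94.3 CPM) and Bmi1 higher in round spermatids than in spermatocytes of each genotype.

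Whether a genotype effect differed between the fractions was tested as an interaction over all 21 libraries. With edgeR, 0 of 20404 genes were called for the null (0% of genes, 1215 at an unadjusted p under 0.05) and 0 for the heterozygote (0%, 1576 unadjusted). Among the 9 genes, Rnf2 came nearest for the null, with a difference of 0.68 (SE 0.30, unadjusted p = 0.0328, edgeR adjusted p = 0.807). The fits of both genotypes thus gave no call of a difference, with standard errors of up to 0.54 for these genes.

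Between the fractions themselves, PRC1 genes did differ. In wild-type libraries 3 of the 10 genes were higher in round spermatids, where 12.7% of all tested genes were called higher, and 2 were lower, where 11.4% were called lower. Bmi1 rose from 100, 108, 90.6 and 117 CPM in spermatocytes to 215, 199 and 183 CPM in round spermatids, without overlap. Its log2 fold change was 0.94 (SE 0.20, adjusted p = 0.00174 by edgeR).

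Phc1 rose by 0.53 on the log2 scale (SE 0.15, adjusted p = 0.0122 by edgeR), from 202 to 224 CPM to 294 to 339 CPM. Cbx2 rose by 1.11 (SE 0.36, adjusted p = 0.0249 by edgeR), and its round spermatid libraries, at 4.0004, 5.48 and 5.92 CPM, all exceeded the spermatocyte libraries. Pcgf6 fell by 1.32 on the log2 scale (SE 0.25, adjusted p = 0.000887 by edgeR), from 57.5 to 94.3 CPM to 26.1 to 34.9 CPM, again without overlap. Rnf2 fell by 0.61 (SE 0.21, adjusted p = 0.0386 by edgeR), although its spermatocyte libraries overlapped with the round spermatid libraries of 21.5, 24.03 and 22.4 CPM. With the libraries that the labels call outliers added back, none of these 5 calls held, and none of 20542 tested genes was called at all, at edgeR adjusted p from 0.063 for Pcgf6 to 0.167 for Cbx2. In the left-out wild-type pair itself, replicate 3 of each fraction, 4 of the 5 genes ran the opposite way. On a scale of all 24 libraries its spermatocyte library held 315 CPM of Phc1, 161 of Bmi1, 6.08 of Cbx2 and 25.9 of Pcgf6, and its round spermatid library held 274, 122, 5.53 and 36.4 CPM. Rnf2 stood at 18.8 and 18.3 CPM in this pair. Without the filter on low counts Rnf2 missed the threshold on the adjusted p, and with consecutive library numbers as a block Phc1 missed the threshold on the fold change. Among 7 fits that each left out 1 library, Bmi1 and Pcgf6 were called in 7, Phc1 in 6 (not without wild-type round spermatid replicate 1), Cbx2 in 3 and Rnf2 in 2.

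Phc2 itself did not pass between the fractions. Its log2 fold change of round spermatids against spermatocytes was 0.29 (SE 0.13, adjusted p = 0.110 by edgeR) in the wild type, 0.22 (SE 0.13, adjusted p = 0.349 by edgeR) in the heterozygote and 0.30 (SE 0.13, adjusted p = 0.121 by edgeR) in the null. Among the libraries used, round spermatid libraries lay above all spermatocyte libraries in the wild type and in the null. The share of all genes free of overlap between the fractions was not counted. On a scale of all 24 libraries, the left-out wild-type pair ran the opposite way for Phc2. It held 34.6 CPM in spermatocytes and 26.2 CPM in round spermatids. The 95% intervals, 0.02 to 0.57, -0.06 to 0.49 and 0.02 to 0.57, do not reach a 2-fold change.

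The calls in the other genotypes were fewer. Heterozygous libraries gave Phc1 (0.63, edgeR adjusted p = 0.0106), Bmi1 (0.97, edgeR adjusted p = 0.00434) and Pcgf6 (-0.76, edgeR adjusted p = 0.0486), where 8.89% of genes were called. Null libraries gave Bmi1 (1.05, edgeR adjusted p = 0.00154) and Pcgf6 (-1.03, edgeR adjusted p = 0.00515), where 17.1% were called. Rnf2 and Cbx2, called in the wild type, had values of 0.07 and 0.32 in null libraries (edgeR adjusted p = 0.848 and 0.572). Bmi1 kept its call in 7 of 7 fits that each left out a library in every genotype, and Pcgf6 did so in the wild type and the null. In the heterozygote Pcgf6 was called in 2 of 7 such fits, with an adjusted p of up to 0.196 by edgeR, and Phc1 in 5 of 7. With the outlier libraries added back, none of the 3 heterozygous calls held (adjusted p = 0.0725 for Bmi1, 0.111 for Phc1 and 0.348 for Pcgf6 by edgeR), and no gene of the table was called in that genotype.

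**Figure D4:**
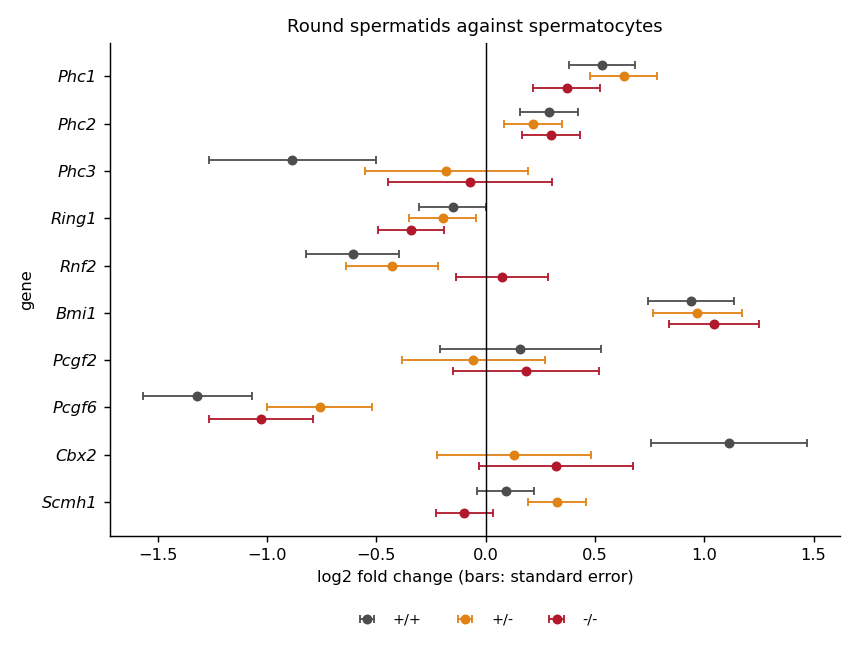
Log2 fold change of round spermatids against spermatocytes for the 10 genes in each genotype, with standard errors as bars. Bmi1 lies near 1 in all 3 genotypes, Pcgf6 is negative in all 3, and Phc2 stands between 0.22 and 0.30.

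In length-corrected level the 10 genes spanned a wide range. In wild-type spermatocytes they were, in CPM per kilobase, Phc1 at 40.7, Bmi1 at 26.1, Pcgf6 at 15.3, Scmh1 at 15.1, Rnf2 at 8.36, Ring1 at 6.13, Phc2 at 4.43, Cbx2 at 0.554, Phc3 at 0.471 and Pcgf2 at 0.252. In wild-type round spermatids Phc1 (58.8) and Bmi1 (50.1) led again, and Phc2 (5.42) was close to Ring1 (5.52) and Rnf2 (5.48). Null libraries brought the length-corrected level of Phc2 to 9.14 in spermatocytes and 11.2 in round spermatids, where Ring1 stood at 5.72 and 4.52 and Rnf2 at 5.38 and 5.66 CPM per kilobase.

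Other subunits and the enzymes around PRC1 were read from lists. Of 22 further PRC1 genes, 11 PRC2 genes, 5 genes of H2A deubiquitination and 44 classical Polycomb targets (Hox genes and others), 22, 10, 5 and 17 were tested in spermatocytes and 22, 10, 5 and 15 in round spermatids. With edgeR, none was called in any genotype comparison. At an unadjusted p under 0.05 for null against wild-type libraries there were 7, 3, 1 and 1 genes of the lists in spermatocytes (30.4% of all tested genes) and 5, 4, 1 and 1 in round spermatids (19.3%). DESeq2 called 4 PRC1 and 3 PRC2 genes in null spermatocytes (15.6% of all tested genes), 2 of each in heterozygous spermatocytes (6.31%) and 1 PRC2 gene in null round spermatids (3.64%). The classical targets had median log2 fold changes of 0.09 and 0.02 in null spermatocytes and round spermatids, against -0.03 and 0.03 over all tested genes.

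Between the fractions of the wild type, 6 of 10 tested PRC2 genes fell in round spermatids and none rose, where 11.4% and 12.7% of all tested genes were called lower and higher. The median log2 fold change of the 10 was -0.55 against 0.02 over all tested genes. In heterozygous libraries 1 was called, lower, where 8.89% of all tested genes were called in either direction, and in null libraries 2 were lower and 1 higher, where 17.1% were called. Mtf2, an accessory subunit that recruits PRC2, fell by 1.30 (SE 0.25, adjusted p = 0.00101 by edgeR), from 40.7 ± 10.4 CPM (SD, n = 4) to 16.6 ± 3.49 CPM (SD, n = 3). Phf1, another accessory subunit, fell by 0.76 (SE 0.22, adjusted p = 0.0154 by edgeR) and Suz12, a core subunit, by 0.69 (SE 0.19, adjusted p = 0.00947 by edgeR). The methyltransferase Ezh2 and the core subunits Eed and Rbbp4, named after their values were seen, were the other called genes.

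Of the 22 further PRC1 genes, 1 rose and 3 fell, against 12.7% called higher and 11.4% called lower over all tested genes. Bcorl1, the X-linked partner of PCGF1, rose by 1.12 (SE 0.23, adjusted p = 0.0015 by edgeR). Pcgf5 fell by 1.36 (SE 0.33, adjusted p = 0.00441 by edgeR) and L3mbtl2, a subunit of the PCGF6 complex, by 1.19 (SE 0.35, adjusted p = 0.0161 by edgeR), and Sfmbt2, named after its values were seen, fell by 0.61 (SE 0.18, adjusted p = 0.0171 by edgeR). Asxl2 of the deubiquitinase fell by 0.74 (SE 0.24, adjusted p = 0.0289 by edgeR). Among the 19 classical targets tested, 2 rose and 1 fell: Hoxc9 (1.89, SE 0.43, adjusted p = 0.00305 by edgeR) and Hoxb3 (1.59, SE 0.36, adjusted p = 0.0031 by edgeR) rose, and Hoxa3 (-0.64, SE 0.23, adjusted p = 0.0457 by edgeR) fell. With the libraries called outliers added back, edgeR called none of these list genes in the wild type, and none of all 20542 genes tested. In heterozygous libraries 0 further PRC1 genes and 1 target, higher, were called, where 8.89% of all tested genes were called. In null libraries 2 further PRC1 genes were lower and 4 targets higher, where 17.1% were called.

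Phc2 was set beside the other genes within 3 Mb of the Argonaute span. Of 164 annotated, 96 were tested, and among the 95 other than Phc2, edgeR called 1 in null spermatocytes (1.05%, against 0.0411% of all tested genes) and 2 in null round spermatids (2.11%, against 0.0518%). Tmem35b fell by 1.92 (SE 0.29, adjusted p = 0.0403 by edgeR) in spermatocytes, and Trim62 (-1.65, SE 0.25, adjusted p = 0.0218 by edgeR) and the histone deacetylase Hdac1 (-0.80, SE 0.11, adjusted p = 0.00644 by edgeR) fell in round spermatids. All 3 lie on the same side of the span as Phc2. In spermatocytes no gene near the span was called with the outlier libraries added back, with a term for library number, or in 5 of 7 fits that each left out 1 library. In round spermatids none was called without wild-type replicate 2 or without wild-type replicate 4, and 1 was called in 4 of the other 5 such fits. Of the 95 genes, 35.8% in spermatocytes and 26.3% in round spermatids had null libraries free of overlap with the wild type, against the 28.0% and 19.4% of all tested genes given above. The PRC2 gene Rbbp4, 2.77 Mb away and named after its values were seen, stood at -0.93 (SE 0.19, adjusted p = 0.0599 by edgeR) in null spermatocytes and -0.34 (SE 0.14, adjusted p = 0.205 by edgeR) in null round spermatids. Other uncalled genes of the window are not given here, whichever way they moved. The median log2 fold change of the 95 genes was -0.14 in null spermatocytes and -0.04 in null round spermatids. A change of Phc2 with the Argonaute genes and one with DNA linked to them cannot be told apart in this design.

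**Figure D5:**
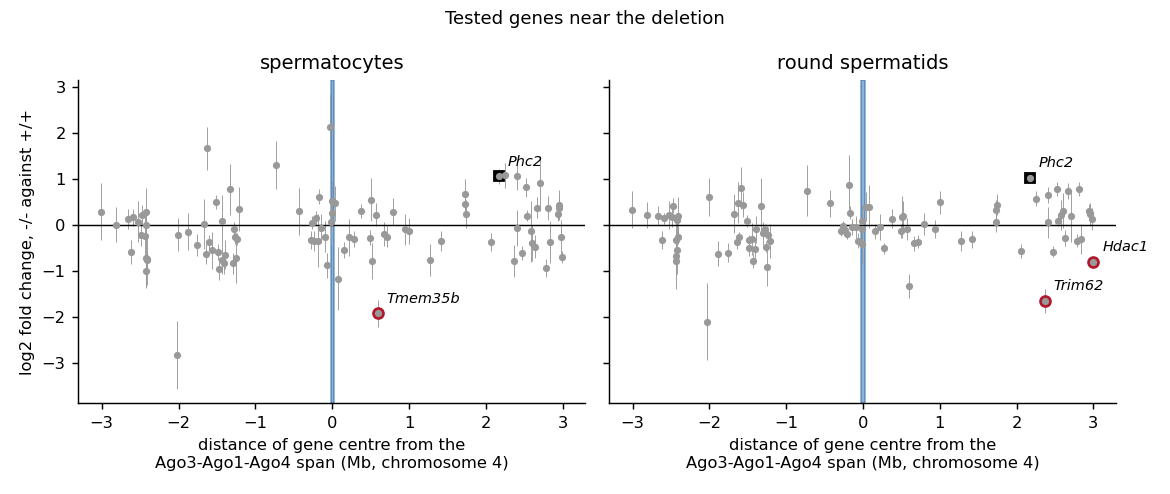
Log2 fold change of null against wild-type libraries, with standard errors, of the 96 tested genes within 3 Mb of the Argonaute span on chromosome 4, by distance of the gene's centre in Mb. Blue marks the span, red dots mark genes called with edgeR, and a black square marks Phc2, which was selected on these values and not tested. Phc2 stands at 1.06 and 1.02, more than 2 Mb to the right of the span.

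Over the 21 libraries, the genes whose log2 CPM was most like that of Phc2 among 18657 were Gm10093 (Pearson r = 0.92), Gm4864 (0.92), 1700086P04Rik (0.90), Gm49007 (0.88) and Nwd2 (0.88). These libraries share the genotype groups by which Phc2 differs. 1700086P04Rik starts at chr4:129050097, and the other 4 lie on chromosomes 17, 12, 14 and 5. Whether any of these genes shares sequence, and so reads, with genes near the Argonaute span was not examined. Of the PRC1 genes Pcgf2 came closest (r = 0.64), at rank 1531 of the 18657 genes, and Pcgf6 was the most unlike (r = -0.73). Phc1 had r = 0.43, at rank 4815, and Phc3 r = -0.33.

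Markers of other testis cells were set beside these values. The 8 Sertoli cell markers summed to 136 to 352 CPM in wild-type and 82.0 to 143 CPM in null spermatocytes, and to 151 to 381 and 203 to 367 CPM in round spermatids. The 10 macrophage markers summed to 14.1 to 20.4 and 13.6 to 26.7 CPM in spermatocytes, with Lyz2 and C1qc at 0 in all wild-type libraries, and to 39.9 to 58.0 and 51.8 to 85.7 CPM in round spermatids. In round spermatids the 8 spermatogonia markers summed to 64.4 to 71.7 CPM (wild-type) and 67.5 to 103 CPM (null). The 7 Leydig, 5 peritubular myoid and 5 erythrocyte markers each summed to at most 24.4 CPM in a library, and the haemoglobin genes Hba-a1, Hba-a2 and Hbb-bt were at 0 in all wild-type spermatocyte libraries. Wild-type and null sums overlapped for each of these 6 lists in both fractions. Those of the pachytene/diplotene markers did not, with 2992 to 3813 against 2173 to 2887 CPM in spermatocytes and 2347 to 2575 against 1976 to 2100 CPM in round spermatids. The part of these cells in the values of Phc2 and the other genes was not tested.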

How the data were processed

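RNA of 24 libraries from enriched spermatocytes and round spermatids was sequenced by the authors as directional poly(A) libraries. Per the labels and methods, reads were trimmed with Trim Galore, aligned to mm10 with STAR and counted per gene by the aligner, and the raw counts were deposited as 1 table of 55536 Ensembl genes. Tool versions, strand column and annotation release are not given in the sources used here. Reads that map to several genes are not counted this way, which lowers genes with near copies. Libraries marked as outliers in the labels (3) did not enter, which left 21.

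Counts were tested in edgeR 4.0.16 (R 4.3.3) with TMM scaling and the quasi-likelihood test. Genotypes were compared in 1 fit of 3 genotypes for each fraction, fractions and interactions in 1 fit of all 21 libraries, and p-values were adjusted by Benjamini-Hochberg over all genes that reached 10 counts in 3 or more libraries of the fit (19450 in spermatocytes, 19310 in round spermatids and 20404 together). A gene was called at an adjusted p under 0.05 with an absolute log2 fold change above 0.5. All 10 genes passed the filter. Intervals are 95% intervals of the fit. Levels are CPM after TMM scaling over the 21 libraries. The scripts were tested on simulated data with known changes.

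All 10 PRC1 genes were named. Of the lists, up to 3 called genes with the largest absolute log2 fold change were named for each list and comparison, near the deletion the called genes, and as most like Phc2 the 5 genes with the highest Pearson correlation of log2 CPM (prior count 2). The genes and lists were chosen with earlier results of these data known. Alternatives were DESeq2 1.42.0, relative log expression scaling, no filter on low counts, the outlier libraries added back, a fit of the compared groups alone, a term for library number, blocks by replicate or library number, and leaving out each library in turn. For interactions, lists and genes near the deletion they were chosen after seeing the data. No 2 libraries agreed within sampling noise (37 pairs, chi-square per gene from 9.75 to 179). Promoter windows come from RefSeq (GRCm38.p6) and matched 9 of the 10 genes. Symbols and exon lengths come from GENCODE M21.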

Additional observations from a re-analysis of the deposited data

Results flagged for a closer look

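Among 30 sets of a gene and a group with 4 libraries, 1 held a library far from the others. Phc3 stood at 7.32 CPM in heterozygous round spermatids replicate 2, while the other 3 libraries lay between 5.33 and 5.43 CPM. Its gap to the nearest library was 0.951 of the range of the group, past Dixon's 95% critical value, and chance gives such a gap in about 1 of 20 sets.

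The libraries that the labels call outliers stood outside the comparisons. On a scale of all 24 libraries, the left-out heterozygous spermatocytes replicate 4 held 53.7 CPM of Phc2, above the 33.6 CPM of the highest wild-type spermatocyte library used and within the 48.7 to 67.1 CPM of the heterozygous libraries used. The left-out wild-type libraries held 34.6 CPM in spermatocytes and 26.2 CPM in round spermatids, where the wild-type libraries used held 34.9 to 41.8 CPM. For other genes left-out libraries lay outside their own group: wild-type spermatocytes replicate 3 held 315 CPM of Phc1 (203.0 to 225 in those used), 161 CPM of Bmi1 (90.9 to 117), 25.9 CPM of Pcgf6 (57.7 to 94.5), 1.70 CPM of Pcgf2 (0.672 to 1.12) and 6.08 CPM of Cbx2 (1.93 to 2.74), and heterozygous spermatocytes replicate 4 held 306 CPM of Phc1 (174 to 252), 174 CPM of Bmi1 (109.9 to 123), 20.5 CPM of Pcgf6 (30.0366 to 49.0) and 0.869 CPM of Pcgf2 (1.496 to 2.91). Wild-type round spermatids replicate 3 held 274 CPM of Phc1 (295 to 339) and 122 CPM of Bmi1 (183 to 216). The same library held 7.97 CPM of Phc3 (3.73 to 4.89) and 2.05 CPM of Pcgf2 (0.793 to 1.26).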

How the results depend on the processing

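The higher level of Phc2 in the null kept its sign in every alternative for both fractions. Its null against wild-type log2 fold change moved most with the replicate block in spermatocytes (0.92) and with the outlier libraries added back in round spermatids (1.14). Labels give no origin for the replicate numbers, and same-numbered libraries deviated together (r above 0.1) in 4 of 17 pairs within a fraction and 4 of 9 pairs across fractions, so the numbers were not taken as pairs. Consecutive library numbers did so in 8 of 9 pairs, from -0.14 to 0.31. Such numbers may mark the same cell preparation, while the main fits took all libraries as independent. A block by these numbers was an alternative for the fraction and interaction comparisons.

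For counts of called genes the cause of each change was not tested, and Phc2 is left out of every genotype count. Of the other 9 PRC1 genes, edgeR called 0 in each genotype comparison. In null spermatocytes DESeq2 called 2 (15.6% of all tested genes), no filter on low counts gave 1 (7.61%), and leaving out a library 0 to 3, with 3 without wild-type replicate 5 (23.6%). In heterozygous spermatocytes DESeq2 and no filter each gave 2 (6.31% and 4.30%), and leaving out a library 0 to 2, with 2 without the same library (15.5%). The replicate block gave 0 in all 6 comparisons. Between fractions of the wild type, where 5 were called, the outlier libraries added back gave 0 (0% of all tested genes) and leaving out a library 3 to 6 (16.7% to 31.6%, against 24.2%), with 3 in 5 of 7 fits and 6 without wild-type spermatocytes replicate 5. In the heterozygote, where 3 were called, they gave 0 (0%) and 1 to 3 (4.72% to 11.5%, against 8.89%), with 1 without heterozygous round spermatids replicate 1.

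Within 3 Mb of the span, null spermatocytes had 1 call among the 95 genes besides Phc2, and, with the same shares of all genes for the same settings, 20 with DESeq2, 14 without the filter, 0 with the outlier libraries (0.0305%), 3 with the replicate block (3.53%), 0 with the term for library number (0.0206%), 12 with the compared groups alone (6.93%) and 0 to 19 with a library left out, 19 without wild-type replicate 5. Null round spermatids had 2, and 11 with DESeq2 (3.64%), 8 without the filter (0.700%), 1 with the replicate block (0.0414%), 1 with the compared groups alone (0.0531%) and 0 to 2 with a library left out, 0 without wild-type replicate 2 or 4. Of the further PRC1 genes, 0 were called in null spermatocytes, and 4 with DESeq2, 3 without the filter, 2 with the replicate block, 2 with the compared groups alone and 0 to 6 with a library left out. Of the PRC2 genes the same settings gave 3, 3, 1, 2 and 0 to 3, and of the deubiquitinase genes no filter gave 1. In null round spermatids DESeq2 and no filter each called 1 PRC2 gene. Between fractions of the wild type, the outlier libraries added back gave 0 calls in all 4 lists, and leaving out a library 0 to 1 deubiquitinase gene.

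Small log2 values of uncalled genes turned sign. In heterozygous spermatocytes these were Ring1 at 0.036 (outlier libraries added back) and Scmh1 at -0.028 (no filter) and -0.012 (compared groups alone). In null round spermatids they were Phc1 at 0.025 (no filter) and 0.033 (outlier libraries), Rnf2 at -0.0016 and Scmh1 at -0.018 (both replicate block) and Cbx2 at 0.013 (no filter). Between fractions of the heterozygote they were Phc3 at 0.0022 (consecutive library numbers as a block) and Pcgf2 at 0.19 (outlier libraries) and 0.16 (consecutive numbers), and of the null Pcgf2 at -0.12 (consecutive numbers).

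With a library left out, the ranges that crossed 0 in null spermatocytes were -0.15 to 0.082 for Ring1 and -0.029 to 0.33 for Bmi1. In heterozygous spermatocytes they were -0.035 to 0.22 for Phc1, -0.69 to 0.10 for Phc3, -0.13 to 0.10 for Ring1, -0.42 to 0.0071 for Rnf2 and -0.033 to 0.11 for Scmh1. In null round spermatids they were -0.067 to 0.044 for Phc1, -0.027 to 0.075 for Rnf2, -0.18 to 0.13 for Cbx2 and -0.011 to 0.14 for Scmh1, and in heterozygous ones -0.25 to 0.13 for Cbx2. Between fractions they were -0.051 to 0.31 for Pcgf2 in the wild type, -0.56 to 0.26 for Phc3, -0.31 to 0.12 for Pcgf2 and -0.26 to 0.71 for Cbx2 in the heterozygote, and -0.30 to 0.14 for Phc3, -0.035 to 0.17 for Rnf2 and -0.11 to 0.38 for Pcgf2 in the null. Counts as low as 9 a library limit Pcgf2, and pooled mice limit what the spread between libraries covers.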
